A study of Homo sapiens with 8 samples.

Results

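The 9 RNAs described here, RN7SL1, RN7SL2, RMRP, RPPH1, RNY1, RNY3, VTRNA1-1, VTRNA1-2 and RNU6ATAC, are short structured noncoding RNAs that RNA polymerase III makes, and they were chosen by name to stand beside 7SK RNA (RN7SK). Of the 9, 6 had a row of their own identifier among the 80311 rows of the count table, and the loci of RN7SL1, RN7SL2 and RPPH1 were held by rows of other genes. The study sequenced total RNA after knockdown of MEPCE, the enzyme that methylates the 5′ end of 7SK, and its title names homologous recombination and R-loops at DNA breaks. U2OS, a human osteosarcoma line, was used as 2 derivatives, each with 2 libraries per siRNA and 8 libraries in all. U2OS AsiSI cells carry the restriction enzyme AsiSI fused to a receptor domain, and had siMePCE or the control siRNA siNC, always with 300 nM 4-hydroxytamoxifen (4-OHT) for the last 4 h, starting at 92 h. U2OS-Flp-In-TREx cells (Flp-In) had siMePCE or siNC, with no 4-OHT stated, so effects of the line and of 4-OHT cannot be told apart. All groups had siRNA in 2 rounds, at 0 and 48 h, and lysis at 96 h. The labels do not say that replicates were separate cultures, so the p-values reflect the spread between libraries, which may be technical.

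RN7SL1 and RN7SL2 are the RNA scaffold of the signal recognition particle, which brings ribosomes to the endoplasmic reticulum. RMRP and RPPH1 are the catalytic RNAs of RNase MRP and RNase P, which cut ribosomal RNA and tRNA precursors and share most of their proteins. RNY1 and RNY3 are Y RNAs bound by Ro60 and La, VTRNA1-1 and VTRNA1-2 belong to the vault particle, and RNU6ATAC is the U6atac RNA of the minor spliceosome. 7SK holds the kinase P-TEFb inactive, and MePCE protects it by capping it. U6 RNA carries the same kind of cap.

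Total counts ran from 41431776 to 53695626 per library. MEPCE itself had 5.35 and 4.84 CPM (counts relative to library size, scaled between libraries by TMM) in Flp-In siMePCE and 39.9 and 40.1 in Flp-In siNC, with 3.65 and 2.30 in AsiSI siMePCE and 29.3 and 29.3 in AsiSI siNC. Mitochondrial genes took 8.24% to 10.55% of counts in siMePCE libraries and 5.23% to 5.91% in siNC libraries. Of 9 osteoblast markers, RUNX2, COL1A1, SPARC and SPP1 were above 4 CPM in all libraries, and SP7, ALPL, COL1A2, BGLAP and IBSP averaged under 1 CPM. Of the 8 markers tested, those 4 fell in Flp-In with edgeR and 0 rose (1 at an unadjusted p under 0.05, 0 with DESeq2), with 1 higher and 1 lower in AsiSI. Among all tested rows, edgeR called 22.7% lower and 18.1% higher in Flp-In, and 21.3% lower and 16.8% higher in AsiSI. COL1A1 averaged 28.1 CPM in Flp-In siMePCE and 73.6 in Flp-In siNC, with 86.1 in AsiSI siMePCE and 111 in AsiSI siNC. The part of this movement in the results below was not tested. Rows of 50 to 400 bases, leaving out RN7SK, RMRP and the loci of RN7SL1, RN7SL2 and RPPH1, took 1.58% to 1.78% of counts in Flp-In siMePCE against 1.04% to 1.13% in Flp-In siNC, and 1.69% to 1.85% in AsiSI siMePCE against 1.19% to 1.26% in AsiSI siNC. Their 5 most abundant rows held 70.2% to 75.3% of these counts, and the other rows together took 0.420% to 0.477% of all counts in Flp-In siMePCE against 0.309% to 0.334% in Flp-In siNC, and 0.423% to 0.457% in AsiSI siMePCE against 0.332% to 0.375% in AsiSI siNC. Most short rows were not called, as given below, and the part of this higher summed share in the members' results was not tested. Replicate 1 of Flp-In siMePCE had more RMRP, RNY1 and RNU6ATAC than replicate 2, and values without it are given where they differ.

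The sequences, from GENCODE 29 transcripts (GRCh38), show 7SK and 5 of the RNAs compared with it. 7SK is at chr6:52995621-52995948 on the plus strand and is printed up to base 300, RMRP at chr9:35657754-35658017 on the minus strand and RNU6ATAC at chr9:134164439-134164564 on the minus strand. RNY1 is at chr7:148987136-148987248 on the minus strand, VTRNA1-1 at chr5:140711275-140711373 and VTRNA1-2 at chr5:140718925-140719013, both on the plus strand. Capitals mark a run of at least 4 T at the 3′ end, which is the usual stop signal of polymerase III, and, in the vault RNAs, the letters GTTCGA of an internal B box promoter.
RN7SK: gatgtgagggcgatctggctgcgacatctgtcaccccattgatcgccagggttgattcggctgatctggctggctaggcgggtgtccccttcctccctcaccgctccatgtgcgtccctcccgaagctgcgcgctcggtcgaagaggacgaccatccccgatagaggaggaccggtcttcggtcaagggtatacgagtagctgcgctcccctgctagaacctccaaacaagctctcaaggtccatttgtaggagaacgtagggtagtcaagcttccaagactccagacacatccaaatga
RMRP: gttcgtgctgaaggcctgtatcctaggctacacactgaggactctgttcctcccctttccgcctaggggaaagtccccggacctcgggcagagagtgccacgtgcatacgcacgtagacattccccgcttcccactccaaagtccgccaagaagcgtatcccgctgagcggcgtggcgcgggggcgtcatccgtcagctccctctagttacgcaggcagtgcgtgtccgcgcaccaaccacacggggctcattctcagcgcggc
RNY1: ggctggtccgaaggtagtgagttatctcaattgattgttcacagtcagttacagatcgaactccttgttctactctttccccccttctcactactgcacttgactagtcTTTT
VTRNA1-1: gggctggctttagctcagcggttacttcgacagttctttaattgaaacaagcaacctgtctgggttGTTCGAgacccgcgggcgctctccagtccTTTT
VTRNA1-2: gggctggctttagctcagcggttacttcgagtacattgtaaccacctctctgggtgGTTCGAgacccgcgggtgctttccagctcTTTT
RNU6ATAC: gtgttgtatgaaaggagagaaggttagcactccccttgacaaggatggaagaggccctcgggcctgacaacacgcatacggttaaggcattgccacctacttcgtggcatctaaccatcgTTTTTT
All 10 annotated RNAs, 7SK and the 9 others, began with G, as did 58.0% of 5188 annotated small RNA transcripts of 50 to 400 bases. The last 4 bases were TTTT in 5 of the 10 (RNY1, RNY3, VTRNA1-1, VTRNA1-2 and RNU6ATAC) and in 11.7% of those transcripts. Only annotated transcripts were searched, so a T run beyond an annotated end would be missed. GTTCGA, searched on both strands, was in 3 of the 10, in both vault RNAs and on the opposite strand of RNY1, and in 2.39% of the transcripts. RNY1 and RNY3 were identical at 82 of 113 aligned positions and VTRNA1-1 and VTRNA1-2 at 81 of 99, and neither pair shared a stretch of 50 bases.

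RN7SL1 and RN7SL2 are near-identical copies, and many stretches of 50 bases cannot tell them apart. They were identical at 295 of 300 aligned positions (98.3%), and 158 of the 251 windows of 50 bases in RN7SL2 were also in RN7SL1.

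RN7SK fell in both lines and set the scale for the other RNAs. It had 2405 and 2089 CPM in Flp-In siMePCE and 11312 and 10908 CPM in Flp-In siNC. In AsiSI it had 1595 and 1600.3 CPM under siMePCE and 7744 and 7965 CPM under siNC. The groups did not overlap, and the falls were 4.94-fold in Flp-In (-2.31 ± 0.0659 SE in log2, edgeR adjusted p = 2.5e-15) and, in AsiSI, 4.92-fold (-2.30 ± 0.0659 SE in log2, adjusted p = 2.7e-15).

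Of the 6 tested rows that stand for these RNAs, own rows and rows that hold a locus, 0 were called lower in either line with edgeR's test, and 0 were lower at an unadjusted p under 0.05 or with DESeq2. Of the 6 RNAs with their own row, RMRP, RNY1 and RNU6ATAC passed the filter on low counts and RNY3, VTRNA1-1 and VTRNA1-2 did not. RMRP and RNY1 were called higher in Flp-In, where 40.8% of all 43321 tested rows were called (18.1% higher and 22.7% lower). RMRP alone was called higher in AsiSI, where 38.1% were called (16.8% higher and 21.3% lower). In the average over both lines RMRP and RNY1 were called higher, with log2 fold changes of 0.74 and 1.61, where 52.5% of rows were called (25.2% higher and 27.2% lower). The rows that hold RN7SL1 and RN7SL2 were called higher in both lines, and the row that holds RPPH1 in Flp-In. The median log2 fold change over all tested rows was 0.03 in Flp-In and 0.04 in AsiSI.

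RMRP, the RNA of RNase MRP (hg19 chromosome 9, 35657751 to 35658014, minus strand), had the most counts of the RNAs with their own row. It had 7139 and 4851 CPM in Flp-In siMePCE and 2484 and 3251 CPM in Flp-In siNC. In AsiSI it had 4766 and 5327 CPM under siMePCE and 3549 and 4021 CPM under siNC. All 4 siMePCE libraries were above all 4 siNC libraries. RMRP rose 2.09-fold in Flp-In (1.06 ± 0.127 SE in log2, edgeR adjusted p = 9.09e-07), with a log2 fold change of 0.74 without replicate 1 of Flp-In siMePCE (adjusted p = 1.47e-05). In AsiSI it rose 1.33-fold (0.41 ± 0.125 SE in log2, adjusted p = 0.0123), a call that was lost without replicate 2 of AsiSI siMePCE (adjusted p = 0.106), without replicate 1 of AsiSI siNC (adjusted p = 0.129) and with DESeq2 (adjusted p = 0.153). An unnamed row of 281 bases that covers RMRP on the same strand had the same counts in nearly every library, so the 2 rows cannot be told apart.

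**Figure D1:**
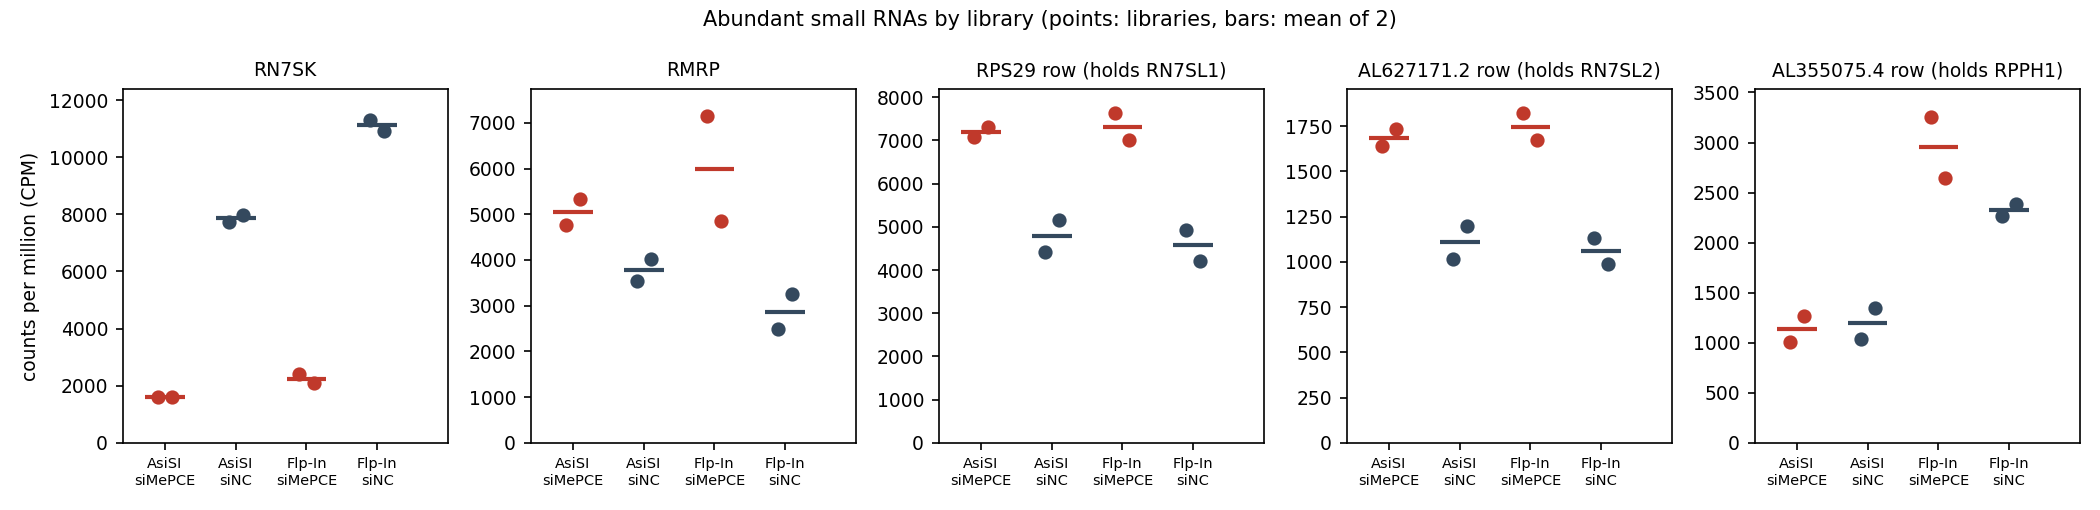
CPM in each library for RN7SK, RMRP and the rows that hold RN7SL1, RN7SL2 and RPPH1, with points for libraries and bars for the mean of 2. RN7SK is lower in both siMePCE groups, RMRP and the RN7SL1 and RN7SL2 rows are higher in them, and the RPPH1 row differs mainly between the lines.

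RPPH1, the sister RNA of RMRP in RNase P, lies within the row of AL355075.4 (hg19 chromosome 14, 20811135 to 20811844, minus strand, 710 bases), which was annotated as an antisense transcript and overlaps PARP2 by 71 bases. In AsiSI that row had 1006 and 1262 CPM under siMePCE and 1041 and 1348 CPM under siNC, and the groups overlapped. It had 3254 and 2648 CPM in Flp-In siMePCE and 2268 and 2387 CPM in Flp-In siNC, which did not overlap. The row rose 1.27-fold in Flp-In (0.34 ± 0.109 SE in log2, edgeR adjusted p = 0.0159), a call that was lost without replicate 1 of Flp-In siMePCE (log2 fold change 0.17, adjusted p = 0.286), without replicate 1 of Flp-In siNC (adjusted p = 0.0876) and with DESeq2 (adjusted p = 0.147). Its log2 fold change in AsiSI was -0.07 (SE 0.109, adjusted p = 0.629). The larger contrast was between the lines, with levels 2.60-fold lower in AsiSI than in Flp-In under siMePCE (-1.38 ± 0.111 SE in log2, adjusted p = 5.21e-09) and 1.95-fold lower under siNC (-0.96 ± 0.110 SE in log2, adjusted p = 8.32e-07).

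RN7SL1 lies within the row of RPS29, a ribosomal protein gene on the other strand (hg19 chromosome 14, 50037702 to 50065882), and RN7SL2 within that of AL627171.2 (50327032 to 50334917, minus strand). An unnamed row of 3286 bases inside the RPS29 row, on the strand of RN7SL1, held 97.7% to 98.5% as many counts as the whole row, and an unnamed row of 297 bases inside the AL627171.2 row held 99.7% to 99.9%. Counts of both rows thus came from short stretches, which were not matched to RN7SL1 or RN7SL2 by identifier. The RPS29 row had 7630.3 and 7000.4 CPM in Flp-In siMePCE and 4935 and 4209 CPM in Flp-In siNC, with 7086 and 7315 CPM in AsiSI siMePCE and 4413 and 5168 CPM in AsiSI siNC. The AL627171.2 row had 1821 and 1675 CPM in Flp-In siMePCE and 1134 and 988 CPM in Flp-In siNC, with 1641 and 1732 CPM in AsiSI siMePCE and 1017 and 1197 CPM in AsiSI siNC. In both rows every siMePCE library was above every siNC library. The RPS29 row rose in both lines, by 0.68 ± 0.0764 SE in log2 in Flp-In (edgeR adjusted p = 4.48e-07) and by 0.59 ± 0.0764 SE in AsiSI (adjusted p = 2.94e-06). The AL627171.2 row rose 1.65-fold in Flp-In, with a log2 SE of 0.0820 (edgeR adjusted p = 5.02e-07), and 1.52-fold in AsiSI, with one of 0.0818 (adjusted p = 4.73e-06). The pair shares nearly all of its sequence, so these are not separate observations.

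RNY1, a Y RNA (hg19 chromosome 7, 148684228 to 148684340, minus strand), had few counts. There were 196 and 76 in Flp-In siMePCE and 12 and 32 in Flp-In siNC, which are 3.97 and 1.57 CPM against 0.280 and 0.766 CPM. In AsiSI there were 58 and 55 counts under siMePCE and 28 and 45 under siNC. The siMePCE libraries were above the siNC libraries in both lines. RNY1 rose 5.30-fold in Flp-In (2.41 ± 0.448 SE in log2, edgeR adjusted p = 0.000193), with log2 fold changes of 1.57 without replicate 1 of Flp-In siMePCE (adjusted p = 0.0193), 1.83 without replicate 1 of Flp-In siNC and 3.28 without its replicate 2. The log2 fold change in AsiSI was 0.82 (SE 0.439, adjusted p = 0.154).

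RNY3, the Y RNA on the plus strand nearby (hg19 chromosome 7, 148680847 to 148680948), had 10 and 6 counts in Flp-In siMePCE and 0 and 2 in Flp-In siNC, with 8 and 0 in AsiSI siMePCE and 4 and 4 in AsiSI siNC. VTRNA1-1 (hg19 chromosome 5, 140090860 to 140090958, plus strand) had 3 and 0 counts in Flp-In siMePCE and 2 and 0 in Flp-In siNC, with 2 and 7 in AsiSI siMePCE and 4 and 6 in AsiSI siNC. VTRNA1-2 (140098510 to 140098598, plus strand) had 8 and 8 in Flp-In siMePCE and 0 and 2 in Flp-In siNC, with 0 and 2 in both AsiSI groups. Differences of these 3 RNAs were not detectable with so few counts, since 0 counts in a library allow up to 3. Without the filter on low counts, the edgeR adjusted p in Flp-In was 0.219 for RNY3, 1.00 for VTRNA1-1 and 0.346 for VTRNA1-2.

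RNU6ATAC, the U6atac RNA (hg19 chromosome 9, 137029561 to 137029686, minus strand), had 54 and 24 counts in Flp-In siMePCE and 26 and 34 in Flp-In siNC, with 40 and 37 in AsiSI siMePCE and 40 and 52 in AsiSI siNC. The groups overlapped in both lines. Its log2 fold changes were 0.17 in Flp-In (SE 0.423, edgeR adjusted p = 0.782) and -0.07 in AsiSI (SE 0.411, adjusted p = 0.911), errors that leave room for changes of the size seen for RMRP. It lies inside an unnamed row of 25955 bases on the same strand that fell 1.62-fold in Flp-In and 2.25-fold in AsiSI. Spread evenly, the other counts of that row would give 4.1 to 12.3 counts over the length of RNU6ATAC.

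**Figure D2:**
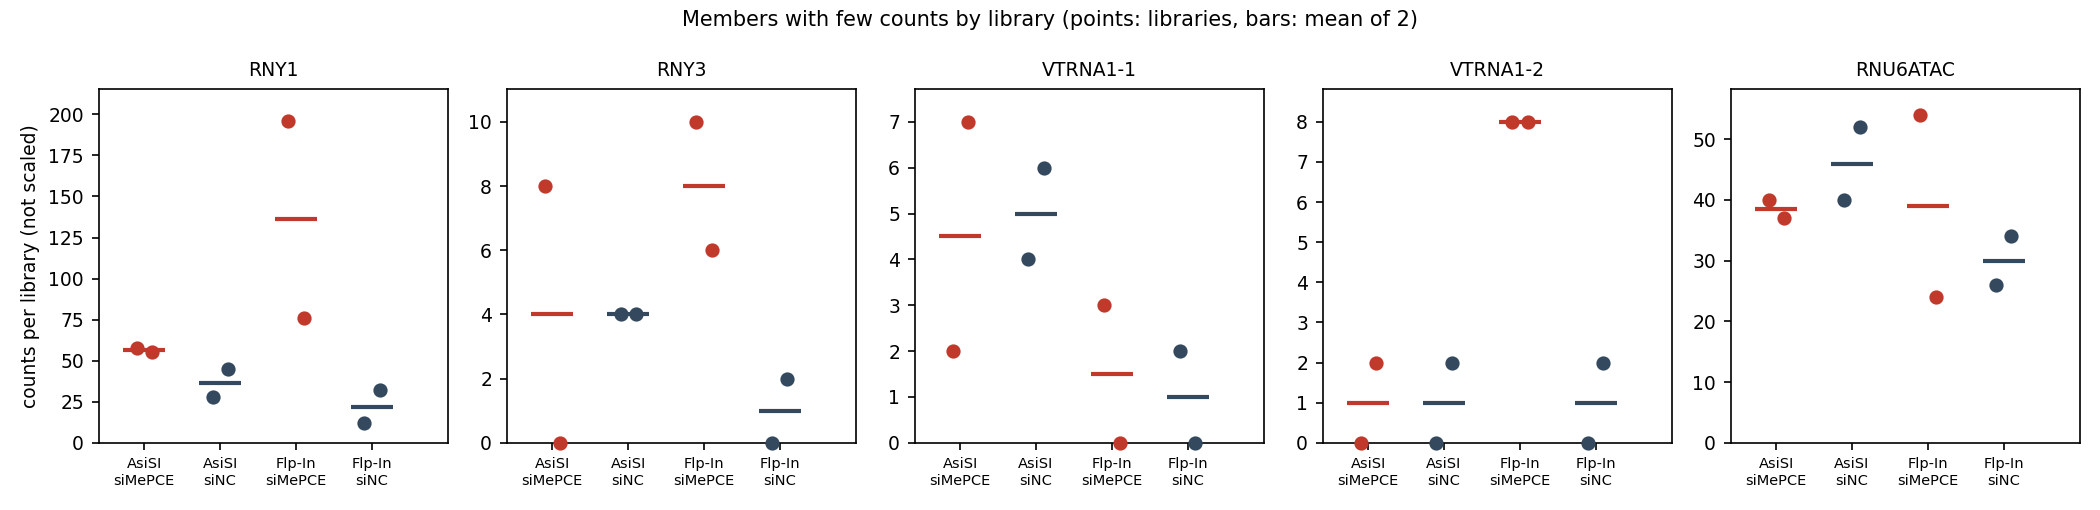
Unscaled counts in each library for the 5 members with few reads, each panel with its own axis, with points for libraries and bars for the mean of 2. RNY1 reaches 196 counts in Flp-In siMePCE, RNY3, VTRNA1-1 and VTRNA1-2 stay at 10 or below in all 8 libraries, and RNU6ATAC overlaps between siRNAs.

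**Figure D3:**
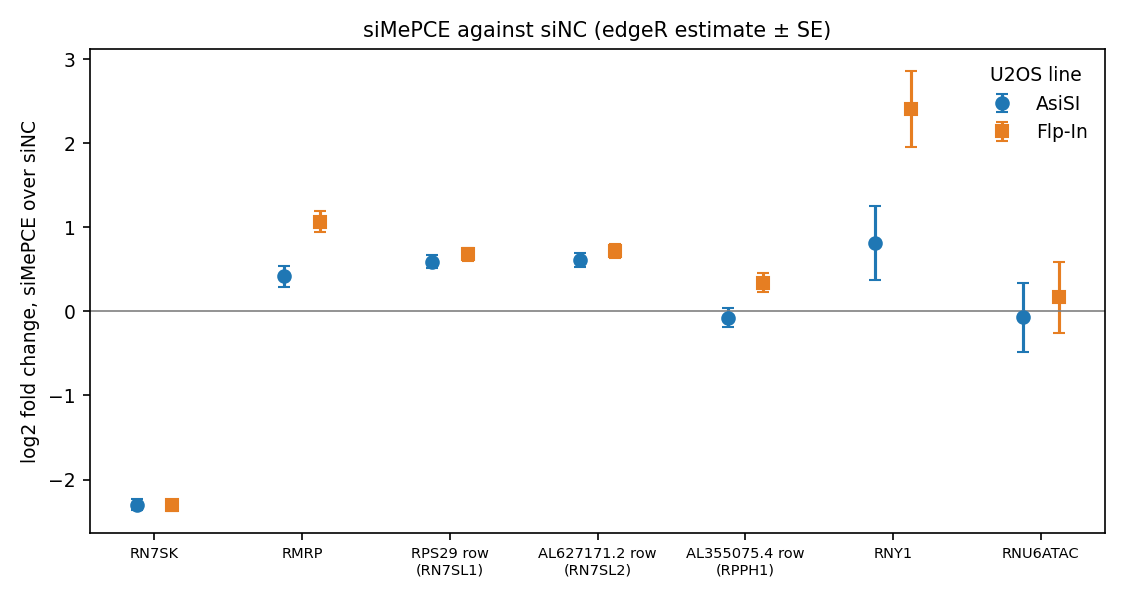
Estimated log2 fold change of siMePCE over siNC with its SE, AsiSI (circles) and Flp-In (squares), for RN7SK and the rows that passed the filter. RN7SK lies at -2.30 and -2.31, and all other estimates lie between -0.07 and 2.41.

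Ratios within a library do not depend on how libraries are scaled. Per 100 counts of RN7SK, RMRP had 297 and 232 counts in Flp-In siMePCE and 22.0 and 29.8 in Flp-In siNC, with 299 and 333 in AsiSI siMePCE and 45.8 and 50.5 in AsiSI siNC. The RPS29 row had 317 and 335 in Flp-In siMePCE and 43.6 and 38.6 in Flp-In siNC, with 444 and 457 in AsiSI siMePCE and 57.0 and 64.9 in AsiSI siNC. For the rows tested, the mean log2 difference of this ratio over both lines was 2.30 for RNU6ATAC, 2.43 for the RPPH1 row, 2.94 for the RN7SL1 row, 2.97 for the RN7SL2 row, 3.04 for RMRP and 3.94 for RNY1. A row whose own level did not change would give the size of the fall of RN7SK, 2.30 ± 0.0466 SE, with all libraries apart, so neither the sign nor the separation of these ratios is a result. RNU6ATAC lay at that value, and the others lay above it by about their own log2 fold change. The rows share the same RN7SK counts, so the 6 ratios are not independent. Per kilobase, the level of RMRP was 22708 CPM against 6850 CPM for RN7SK in Flp-In siMePCE, and 10861 against 33872 CPM in Flp-In siNC. In AsiSI the RMRP level per kilobase was 19115 CPM against 4871 CPM for RN7SK under siMePCE, and 14337 against 23946 CPM under siNC. The order of the 2 values was turned round in both lines. With RMRP at its siNC value, the fall of RN7SK alone would give the same order. Recovery of the 2 RNAs in the libraries was not compared, so this order is one of counts.

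The effect of siMePCE on RMRP was smaller in AsiSI than in Flp-In, at a log2 difference of -0.65 (AsiSI minus Flp-In, SE 0.177, edgeR adjusted p = 0.0412), where 4.17% of all tested rows were called (2.51% higher and 1.66% lower). That call was lost without replicate 1 of Flp-In siMePCE (log2 difference -0.34, adjusted p = 0.243), without replicate 1 of Flp-In siNC (adjusted p = 0.161), without replicate 1 of AsiSI siMePCE (adjusted p = 0.105), without replicate 2 of AsiSI siNC (adjusted p = 0.132) and with DESeq2 (adjusted p = 0.254). The differences were -1.59 for RNY1 (SE 0.629, adjusted p = 0.176, from -2.47 without replicate 2 of Flp-In siNC to -0.77 without replicate 1 of Flp-In siMePCE), -0.42 for the RPPH1 row (adjusted p = 0.144), -0.24 for RNU6ATAC (adjusted p = 0.886), -0.11 for the RN7SL2 row (adjusted p = 0.672) and -0.09 for the RN7SL1 row (adjusted p = 0.729). The RPPH1 row was called in the difference without replicate 2 of Flp-In siMePCE (-0.57, adjusted p = 0.0448), without replicate 2 of AsiSI siMePCE (-0.59, adjusted p = 0.0352) and without replicate 1 of AsiSI siNC (-0.59, adjusted p = 0.0206). RN7SK gave 0.01 (SE 0.0888, adjusted p = 0.978).

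Between the lines, RMRP was called 1.32-fold higher in AsiSI than in Flp-In under siNC (0.40 ± 0.125 SE in log2, edgeR adjusted p = 0.0193), where 29.5% of rows were called (14.4% higher and 15.1% lower). The call was lost without replicate 1 of Flp-In siNC (adjusted p = 0.175), without replicate 2 of AsiSI siNC (adjusted p = 0.115) and with DESeq2 (adjusted p = 0.225). Under siMePCE, where 31.5% were called (15.6% higher and 15.9% lower), RNY1 was 2.18-fold lower in AsiSI (-1.12 ± 0.405 SE in log2, adjusted p = 0.0394), and -0.30 remained without replicate 1 of Flp-In siMePCE (adjusted p = 0.738). That call was also lost without replicate 1 (adjusted p = 0.0920) or replicate 2 (adjusted p = 0.125) of AsiSI siMePCE and with DESeq2 (adjusted p = 0.0648). RMRP was not called under siMePCE, with a log2 fold change of -0.25 (edgeR adjusted p = 0.144). That estimate ran from -0.51 without replicate 2 of Flp-In siMePCE to 0.059 without its replicate 1. With no filter on low counts, RMRP was called lower in AsiSI under siMePCE (-0.25, edgeR adjusted p = 0.000998). RN7SK was 1.41-fold lower in AsiSI under each siRNA.

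RMRP and RPPH1 each stand head to head with a protein gene, CCDC107 and PARP2, and the stretch between each pair is shown beside the values of both its genes. The windows are the 250 bases before the start of CCDC107 (chr9:35658042-35658291) and of PARP2 (chr14:20343385-20343634), both printed on the plus strand, from RefSeq (GRCh38.p14), whose promoter table held 0 of the 9 RNAs. The CCDC107 window began 24 bases before the first base of RMRP, and the PARP2 window covered the first 23 bases of RPPH1. Capitals mark the octamer ATGCAAAT and TATAA, both searched on both strands, and no octamer overlapped a TATAA.
CCDC107 window: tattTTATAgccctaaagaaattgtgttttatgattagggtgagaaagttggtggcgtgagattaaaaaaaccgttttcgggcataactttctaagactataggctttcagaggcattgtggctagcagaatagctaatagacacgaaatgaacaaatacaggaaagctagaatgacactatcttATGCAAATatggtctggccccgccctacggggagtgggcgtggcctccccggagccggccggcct
PARP2 window: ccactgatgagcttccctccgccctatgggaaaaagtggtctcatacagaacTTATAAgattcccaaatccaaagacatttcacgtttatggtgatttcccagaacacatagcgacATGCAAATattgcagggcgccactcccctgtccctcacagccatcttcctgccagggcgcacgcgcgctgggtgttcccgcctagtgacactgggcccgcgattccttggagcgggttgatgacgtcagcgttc
Both windows held 1 octamer on the plus strand, and 1.63% of 35116 promoter windows of the same length held it on either strand. TATAA, read on the minus strand in the CCDC107 window and on both strands at overlapping positions in the PARP2 window, was in 18.9% of them.

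CCDC107 starts 272 bases from RMRP on the other strand and had 2.68 and 1.92 CPM in Flp-In siMePCE and 15.9 and 13.7 CPM in Flp-In siNC, with 1.53 and 1.96 CPM in AsiSI siMePCE and 7.94 and 7.6 CPM in AsiSI siNC. It fell 6.43-fold in Flp-In (-2.68 ± 0.195 SE in log2, edgeR adjusted p = 1.04e-09) and, in AsiSI, 4.45-fold (-2.15 ± 0.203 SE in log2, adjusted p = 4.08e-08). ARHGEF39, a guanine nucleotide exchange factor gene 857 bases away on the strand of RMRP, fell 6.67-fold in Flp-In and 4.66-fold in AsiSI. RMRP thus rose where both of these neighbours fell. PARP2, which makes poly(ADP-ribose) at DNA breaks, had 27.6 and 23.4 CPM in AsiSI siMePCE and 27.7 and 28.2 CPM in AsiSI siNC, with 45.9 and 40.9 CPM in Flp-In siMePCE and 42.9 and 48.0 CPM in Flp-In siNC. Its log2 fold changes were -0.13 in AsiSI (edgeR adjusted p = 0.380) and -0.07 in Flp-In (adjusted p = 0.655). Like the RPPH1 row, it was lower in AsiSI than in Flp-In, with log2 fold changes of -0.77 under siMePCE (adjusted p = 1.8e-05) and -0.70 under siNC (adjusted p = 5.18e-05). Rows appear to have been counted without regard to strand, so reads in the overlap of the 2 rows count for both.

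**Figure D4:**
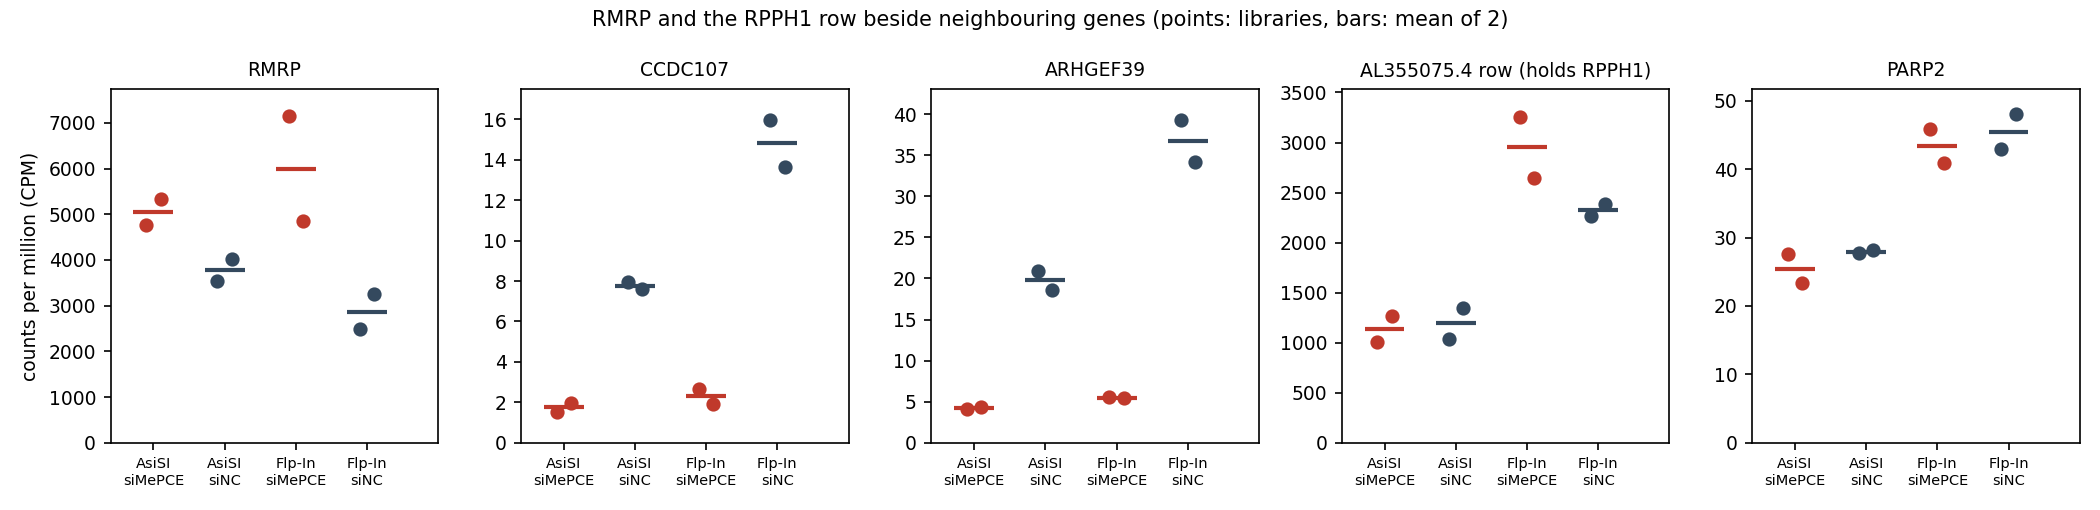
CPM in each library for RMRP, its neighbours CCDC107 and ARHGEF39, the row that holds RPPH1, and PARP2, with points for libraries and bars for the mean of 2. CCDC107 and ARHGEF39 are lower in both siMePCE groups where RMRP is higher, and the RPPH1 row and PARP2 are both lower in AsiSI than in Flp-In.

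Other RNAs of the same polymerase mostly had too few counts to test. Recovery of short RNAs in these libraries was not tested, so low counts are not read as low levels in the cells. Of 16 on the list, RN7SK included, 12 had a row and 6 were tested, of which 1 was called higher and 1 lower in Flp-In, and 0 higher (1 at an unadjusted p under 0.05, 0 with DESeq2) and 1 lower in AsiSI with edgeR. BCYRN1, a brain cytoplasmic RNA that regulates translation, rose 1.38-fold in Flp-In (0.47 ± 0.167 SE in log2, edgeR adjusted p = 0.0292) and had a log2 fold change of 0.05 in AsiSI (adjusted p = 0.847). RN7SK made up the lower calls. These few calls stand beside 40.8% of all tested rows called in Flp-In and 38.1% in AsiSI. VTRNA1-3, the third vault RNA of the cluster, had 233 and 171 counts in Flp-In siMePCE and 62 and 152 in Flp-In siNC, with 134 and 190 in AsiSI siMePCE and 115 and 128 in AsiSI siNC. Its log2 fold changes were 0.70 in Flp-In (edgeR adjusted p = 0.0711) and 0.59 in AsiSI (adjusted p = 0.133), and it was called 1.57-fold higher in their average (log2 SE 0.215, adjusted p = 0.0155). In Flp-In it was 0.17 without replicate 1 of siNC and was called higher without replicate 2 of siNC (adjusted p = 0.00109), so single libraries moved it over a wide range. The call in the average was lost without replicate 1 of Flp-In siMePCE (adjusted p = 0.0824), replicate 1 of Flp-In siNC (0.38, adjusted p = 0.119) or replicate 2 of AsiSI siMePCE (adjusted p = 0.0753). The U6 genes RNU6-2, RNU6-8 and RNU6-9, whose copies share reads, had between 5 and 67 counts per library and no call in either line.

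Small nuclear and related RNAs made by polymerase II were mostly called higher in Flp-In. Of 22 on that list 12 were tested, with 10 called higher and 0 lower in Flp-In (median log2 fold change 1.65) and 5 higher and 0 lower in AsiSI (median 0.65), which are 83.3% and 41.7% of those tested. In both lines 0 of this list were lower at an unadjusted edgeR p under 0.05 or with DESeq2. Over all tested rows, 18.1% were higher and 22.7% lower in Flp-In, and 16.8% higher and 21.3% lower in AsiSI. RNU2-2P, a U2 RNA gene, rose 2.17-fold in Flp-In and 1.56-fold in AsiSI, and SNORD3A, the U3 RNA that guides cleavage of ribosomal RNA, 2.30-fold and 1.57-fold. RNU1-1, a U1 gene, rose in Flp-In and AsiSI, with log2 fold changes of 1.93 and 1.65. RNU4-1 and RNU5B-1, of the U4 and U5 RNAs, rose in Flp-In, RNU4-1 by 1.69 (edgeR adjusted p = 3.55e-05) and RNU5B-1 by 2.35 on the log2 scale (adjusted p = 2.36e-05). With 1 library left out, RNU4-1 ran from 1.20 without replicate 1 of Flp-In siNC to 2.40 without its replicate 2, and RNU5B-1 from 1.79 to 2.74 without replicate 1 or 2 of Flp-In siMePCE. In AsiSI they were called only without replicate 2 of siNC (0.88, adjusted p = 0.0282, and 1.31, adjusted p = 0.0174). Many copies of these genes are near identical, so single genes are uncertain. Of 209 tested snoRNA rows, 77 were higher and 0 lower in Flp-In with edgeR (0 also unadjusted and with DESeq2), and 24 higher and 2 lower in AsiSI. These are 36.8% and 12.4% of the snoRNA rows, against 40.8% and 38.1% of all rows. Higher calls alone took 36.8% of the snoRNA rows in Flp-In and 11.5% in AsiSI, against 18.1% and 16.8% of all rows. Over 1272 tested rows of 50 to 400 bases other than RN7SK and rows at the members' loci, 190 were higher and 80 lower in Flp-In (median log2 fold change 0.38), and 104 higher and 79 lower in AsiSI (median 0.14). The called shares, 21.2% and 14.4%, were below those over all rows. RMRP at 1.06 and 0.41 lay above these medians in both lines. Short rows that lie inside longer rows, snoRNA rows among them, were kept. The part of the longer rows' reads in their counts was not tested.

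**Figure D5:**
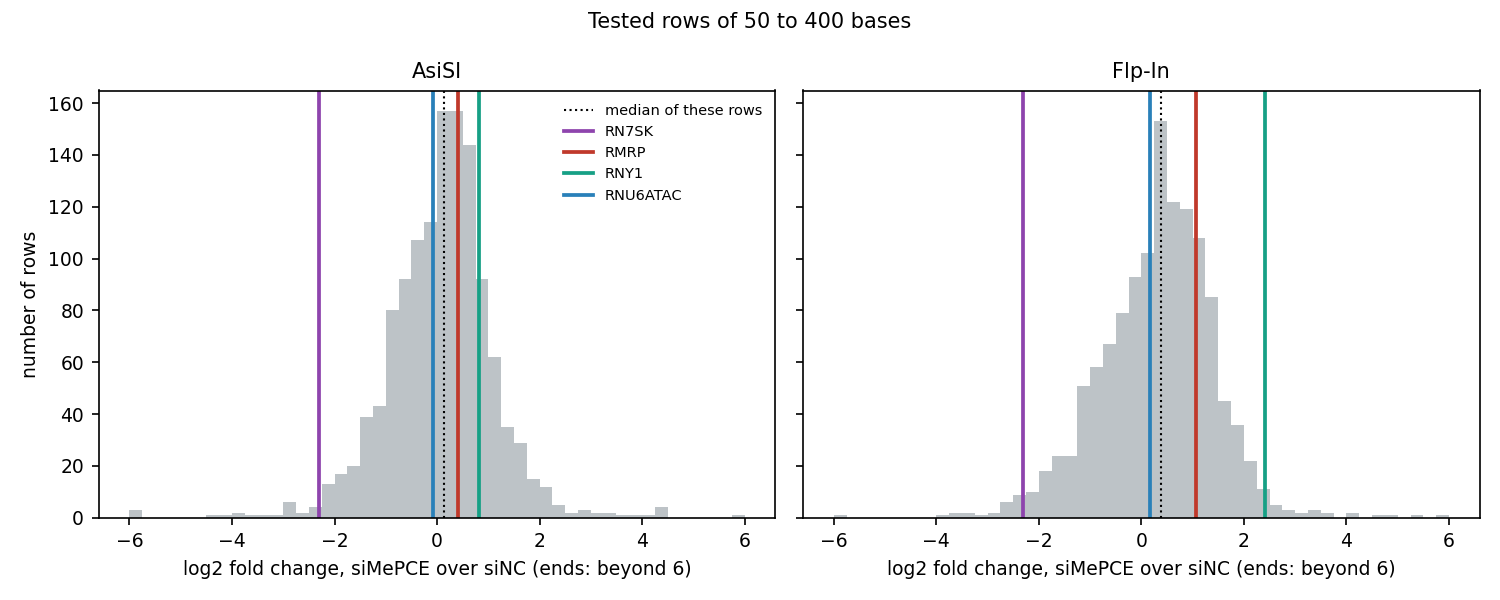
Number of the 1272 tested rows of 50 to 400 bases by log2 fold change of siMePCE over siNC in AsiSI (left) and Flp-In (right), with lines at RN7SK, RMRP, RNY1 and RNU6ATAC and a dotted line at the median; rows beyond the ends of the axis are drawn in the outermost bars. The medians are 0.14 in AsiSI and 0.38 in Flp-In, RN7SK lies far to the left of both at -2.30 and -2.31, and RMRP and RNY1 lie to the right.

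Proteins that work with these RNAs were called in both directions, in shares to be read against the 40.8% of all rows called in Flp-In and 38.1% in AsiSI. Of 32 polymerase III subunits and factors, 8 were higher and 7 lower in Flp-In (median log2 fold change -0.001), and 3 higher and 18 lower in AsiSI (median -0.39), which are 46.9% and 65.6% of the list. SNAPC1, a subunit of the SNAPc complex that starts transcription of 7SK, RMRP, RPPH1 and U6 type genes, fell in both lines, with log2 fold changes of -1.49 and -1.33. ZNF143, an activator at the same type of promoter, rose, with log2 fold changes of 0.62 and 0.66, and so did the polymerase III subunit POLR3C (0.74 and 0.26). The TFIIIC subunits GTF3C1 and GTF3C2 fell, with log2 fold changes of -0.39 and -0.27 in Flp-In and -0.56 and -0.70 in AsiSI.

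Of 11 proteins of RNase P and RNase MRP, 3 were higher and 4 lower in Flp-In, and 1 higher and 5 lower in AsiSI (63.6% and 54.5%). POP4, POP5, RPP25L and RPP38 fell in both lines, RPP25L by 1.70 in Flp-In and 1.04 in AsiSI on the log2 scale. RPP14 rose in both (0.37 and 0.41), and RPP40 rose in Flp-In, with a log2 fold change of 0.81 (edgeR adjusted p = 0.000447), and had 0.15 in AsiSI (adjusted p = 0.479). Of 8 signal recognition particle proteins and receptors, 4 were higher and 2 lower in Flp-In and 0 higher and 2 lower in AsiSI with edgeR (0 higher also unadjusted and with DESeq2). SRP9, which binds the Alu end of the RNA, and the receptor subunit SRPRA fell in both lines, and SRPRB rose in Flp-In (log2 fold change 0.61). Of 6 Y RNA proteins, 3 were higher and 1 lower in each line (66.7%). SSB, the La protein that holds the T run at the 3′ end of new polymerase III RNAs, rose in Flp-In and AsiSI (0.91 and 0.64), as did YBX3 (0.80 and 0.48) and YBX1 (0.76 and 0.29), and the helicase MOV10 fell (-0.70 and -0.96). Of 5 vault proteins and vault RNA modifiers, 1 was higher and 3 lower in Flp-In and 0 higher (0 also unadjusted and with DESeq2) and 3 lower in AsiSI, with PARP4 and SRSF2 lower in both. Of 28 proteins listed for U6 and U6atac particles and the minor spliceosome, 10 were higher and 5 lower in Flp-In. In AsiSI 4 were higher and 10 lower (15 and 14 of 28 called in the 2 lines). Among them LSM4 and the minor spliceosome proteins CENATAC and SNRNP25 fell in both lines, and PRPF3 and SNU13 rose. Leaving out 1 library or another ended the calls of GTF3C2, RPP38, RPP14, SRP9, SRPRA, PARP4, SRSF2 and SNRNP25 in Flp-In. It also ended the Flp-In calls of SRP19, SRP54, SRP68 and MVP, which are among the counts above. In AsiSI it ended the calls of POLR3C, RPP14, YBX1, SRP9 and SNU13.

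Rows whose log2 CPM followed each RNA most closely over the 8 libraries are given as a description. For RMRP these were RNU2-59P (Pearson r = 0.990) and ATP5F1E (0.986), among 13486 rows with a symbol and a mean of at least 5 CPM. For RNY1 they were RNU2-6P (0.993) and RNU2-59P (0.990), both U2 copies, and for RNU6ATAC RUNDC1 (0.980) and PPIB (0.902). The RN7SL1 row was followed by NID2 (0.987) and NR1D1 (0.986), and the RPPH1 row by ZNHIT1 and MGRN1 (both 0.993). The 8 libraries share the siRNA and line effects, and the best of many rows is high by choice.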

How the data were processed

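Total RNA was sequenced in 8 libraries after removal of ribosomal RNA with a directional kit, per the labels' protocols. Per the submitters' processing notes, the tools were featureCounts, STAR, SAMtools, FastQC and Trim Galore on hg19, with no version. The authors deposited raw counts per gene in 80311 rows with hg19 coordinates. In 100% of them the listed length is the distance from start to end, so introns were counted. Overlapping rows on opposite strands held nearly the same counts at RN7SL1, so reads appear to have been counted for every overlapping row on either strand; the counter's settings are not given in the sources used here. Symbols were matched by identifier for 50.8% of rows, and GENCODE 29 was used for names, for which genes lie inside others and for sequences.

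Rows kept by edgeR's filterByExpr (43321) were fitted as 4 group means over all 8 libraries with TMM scaling and the quasi-likelihood test (edgeR 4.0.16, limma 3.58.1, R 4.3.3), with Benjamini-Hochberg adjustment over all of them and calls at an adjusted p under 0.05. The common biological coefficient of variation was 0.121. The fit was also run on simulated counts, and the outcome is not reported here. Replicates of a group were compared and none was a copy of the other. Comparisons were siMePCE with siNC in Flp-In and in AsiSI, their average and difference, and AsiSI against Flp-In under each siRNA. Ratios to RN7SK are given as a description: a planned permutation test of them is not used, since the fall of RN7SK alone fixes its outcome. Alternatives were other scalings, other count filters, a replicate block, leaving out each library, only the 4 libraries compared, and DESeq2 1.42.0.

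The members and lists were chosen with earlier results of these data known. Named were the 9 RNAs, RN7SK, MEPCE, rows within 1000 bases of a member, up to 6 genes per list by adjusted p in the average among those called, and the 2 most correlated rows per member. BCYRN1, RNU6-2, RNU6-8 and RNU6-9 were chosen after their values were seen. Counting intervals cover counting error only. Some sequences and a gene are not reported here.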

Additional observations from a re-analysis of the deposited data

Results flagged for a closer look

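The response of RMRP to siMePCE was called different in the 2 lines when the difference was tested, at -0.65 on the log2 scale (AsiSI minus Flp-In). RMRP rose 1.33-fold in AsiSI and 2.09-fold in Flp-In. The replicates of Flp-In siMePCE stood apart, at 7139 and 4851 CPM, and the call of the difference was lost without the first of them, as given above. The part of that library in the difference was not tested further.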

How the results depend on the processing

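The 4 other scalings (DESeq2 size factors, library totals, TMM without mitochondrial, RN7SK, RN7SL and ribosomal RNA rows, and TMM from rows longer than 400 bases) changed no call of a member and moved the median of all rows by at most 0.0446 on the log2 scale. DESeq2 itself called 0 members in AsiSI, in the difference and between lines under siNC and siMePCE. No filter on low counts gave 2 called members between lines under siMePCE, RMRP and RNY1. Leaving out each library in turn gave 658 to 1653 rows called in the difference, and 0 to 1 members called in AsiSI, in the difference and between lines under siNC, and 0 to 2 between lines under siMePCE. RMRP and RNY1 stayed called in Flp-In and in the average in each of these. The RPPH1 row was not called in the average with all 8 libraries, but was with counts of at least 10 in all libraries and when replicate 2 of Flp-In siMePCE, replicate 1 of AsiSI siMePCE or replicate 2 of AsiSI siNC was left out. Without a filter it was also called in the difference (-0.42), as it was without 1 of 3 libraries, given above. Estimates near 0 changed sign when a library was left out. RNU6ATAC ran from -0.53 to 0.62 in Flp-In, -0.20 to 0.058 in AsiSI, -0.31 to 0.27 in the average, -0.71 to 0.44 in the difference and -0.34 to 0.80 between lines under siMePCE. Between lines under siMePCE, RMRP ran from -0.51 to 0.059, the RN7SL1 row from -0.092 to 0.043 and the RN7SL2 row from -0.12 to 0.012. Between lines under siNC, RNY1 ran from -0.059 to 1.39, the RN7SL1 row from -0.031 to 0.21 and the RN7SL2 row from -0.040 to 0.19. The difference ran from -0.10 to 0.11 for RN7SK, -0.20 to 0.036 for the RN7SL1 row and -0.23 to 0.017 for the RN7SL2 row. The RPPH1 row ran from -0.26 to 0.13 in AsiSI, SRP68 from -0.11 to 0.15, RPP40 from -0.037 to 0.36 and SRP54 from -0.014 to 0.19 there, and PARP2 from -0.17 to 0.0099 in Flp-In, where it was 0.0030 with counts of at least 10 in all libraries. The causes were not tested. Libraries with the same replicate number were alike only weakly, with correlations of deviations from 0.0427 to 0.155, all positive. The replicate block gave 2912 rows called in the difference against 1808 without it, and more in every other comparison. It changed no call of a member, and a shared effect of the replicate number was not tested further. Few counts limit RNY1, RNY3, VTRNA1-1, VTRNA1-2 and RNU6ATAC.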
